A study of Mus musculus with 30 samples.

Results

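The genes described here were 10 genes of secreted and mucosal innate defence, Ltf, Lcn2, Wfdc18, Lbp, Cd14, Pigr, Mfge8, Spp1, Clu and Muc1. They were chosen by name from such genes of mammary epithelium and milk, and all 10 were present among the 11137 genes of the normalized count table. The libraries were 3′ mRNA libraries of mammary epithelial cells, luminal or basal, which had been sorted from the mammary glands (MGs) of single female mice to ask what luminal loss of Rank and a first pregnancy change in each lineage. Rank (Tnfrsf11a) is the receptor for Rankl, a signal that drives alveolar development.

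Libraries came from K8imTmG mice, which carry K8rtta, Tet-O-Cre and the Rosa mT/mG reporter, and from K8iΔRank mice, which carry in addition Rank fl/fl. Doxycycline, 1 mg/ml in drinking water, was given to both genotypes between weeks 3 and 8 of age by the labels, so the controls also expressed the recombinase. Since Krt8 drives the transgene, recombination was luminal, the sorted luminal cells were GFP+, and the basal cells of K8iΔRank mice kept Rank. Sorting gates removed CD45+ and CD31+ cells and set luminal apart as CD24 high and CD49f low, basal as CD24 low and CD49f high. Parous MGs had gone through one pregnancy and involution. K8imTmG dams nursed until the pups were removed whereas K8iΔRank dams failed to lactate by the study's account, so genotype and the history of nursing cannot be told apart in parous MGs. Luminal libraries numbered 3 virgin K8imTmG, 3 virgin K8iΔRank, 5 parous K8imTmG and 4 parous K8iΔRank. Basal libraries numbered 3, 4, 4 and 4 in the same order, and 13 of the 17 mice gave both lineages.

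Milk and the surface of the MG carry proteins that act on microbes without an adaptive response. Lactoferrin (Ltf) binds iron and lipocalin 2 (Lcn2) binds the siderophores with which bacteria collect it, while Wfdc18 encodes a small protein of the whey acidic protein family. Lbp carries bacterial lipopolysaccharide to Cd14, which passes it to Toll-like receptor 4, and Pigr carries polymeric immunoglobulin A across the epithelium. Mfge8 bridges dying cells and milk fat globules to phagocytes, Spp1 (osteopontin) is a secreted integrin and CD44 ligand, Clu (clusterin) is an extracellular chaperone, and Muc1 is a membrane mucin of the apical surface.

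All 10 are protein-coding genes in the GENCODE vM39 annotation of GRCm39. Ltf (ENSMUSG00000032496.9) lies at chr9:110848339-110871835 on the plus strand, Lcn2 (ENSMUSG00000026822.15) at chr2:32274645-32278264 on the minus strand and Wfdc18 (ENSMUSG00000000983.14) at chr11:83599841-83602174 on the plus strand. Lbp (ENSMUSG00000016024.11) lies at chr2:158148409-158174800 on the plus strand, and Pigr (ENSMUSG00000026417.15) at chr1:130754397-130779986 on the plus strand. Mfge8 (ENSMUSG00000030605.17) lies at chr7:78783515-78798825 on the minus strand, Spp1 (ENSMUSG00000029304.16) at chr5:104582165-104589235, Clu (ENSMUSG00000022037.17) at chr14:66190200-66218999 and Muc1 (ENSMUSG00000042784.11) at chr3:89136354-89140688, these 3 on the plus strand. Spp1 shares its strand with the overlapping gene Gm42793, and reads of both cannot be separated here. Pigr, Mfge8 and Clu overlap genes on the opposite strand only, and the library kit is stranded.

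Promoter letters are shown because several of these genes are known targets of NF-κB, Stat or C/EBP factors in epithelia. RefSeq windows from 250 bases before to 50 bases after the start (table build GRCm38.p6) were matched by symbol for 7 members and located by exact match in GRCm39, and none was used for Cd14, Lbp or Clu. Both strands were searched, overlapping matches included, for a relaxed NF-κB form, GGGNNNNNCC, a Stat form, TTCNNNGAA, and a relaxed C/EBP form, TTNNGNAAT. The NF-κB form occurred in the windows of Pigr, Lcn2, Mfge8 and Ltf and in 50.8% of all 32851 windows, the C/EBP form in those of Ltf and Spp1 and in 11.5%, and the Stat form in that of Pigr and in 8.3%. The windows of Muc1 and Wfdc18 held none of the 3 forms. Further NF-κB matches, at -13 and -12 in Pigr and at -61 and -60 in Ltf, and those of Mfge8 are not shown. Capitals below mark the match, and each line reads 5′ to 3′ on the strand of its gene.
Lcn2, NF-κB form: ggtaaaggatGGACTACCCCgcccaacagg
Pigr, NF-κB form: tatgggaacaGGGCAATCCCtagttactag
Pigr, Stat form: cagtagtgccTTCCTGGAAgc
Ltf, C/EBP form: ggcaggcctaTTGGGCAATagggtggggcc
Ltf, NF-κB form: ttgggcaataGGGTGGGGCCagcccggtga
Spp1, C/EBP form: atgaatagagTTGTGAAATtgcccttttcc
The Lcn2 match begins at position -102 (chr2:32277834-32277863, minus strand) and the Pigr matches shown at -232 (chr1:130754179-130754208) and 40 (chr1:130754450-130754470). Those of Ltf begin at -75 (chr9:110848275-110848304) and -65 (chr9:110848285-110848314), and that of Spp1 at -15 (chr5:104584033-104584062), all on the plus strand. Positions count from the RefSeq start of each window, which lies inside the GENCODE gene for these 4 genes, farthest for Spp1 and Lcn2. These matches are descriptions of letters and no measurement of binding.

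The libraries held 340445 to 3130419 deduplicated reads (median 1853588), so that 1 read was worth 0.381 to 5.43 normalized counts. Tnfrsf11a, the targeted gene, averaged 14.1 ± 4.51 (SD, n = 3) for virgin K8imTmG luminal cells, 18.1 ± 6.16 (SD, n = 3) for virgin K8iΔRank, 39.5 ± 22.1 (SD, n = 5) for parous K8imTmG and 33.7 ± 5.82 (SD, n = 4) for parous K8iΔRank, but reads from the 3′ end do not tell whether an upstream exon was deleted, so genotypes are those of the labels. The libraries also fell into 16 with low and 14 with high counts of the lectin gene Clec2d (0.641 to 8.68 against 65.6 to 199). Among luminal libraries the 3 virgin K8imTmG were on the low side and the 3 virgin K8iΔRank on the high side, the parous K8imTmG were 3 low and 2 high, and the parous K8iΔRank were all low. In basal cells the K8imTmG libraries of both stages were high, the virgin K8iΔRank libraries low, and the parous K8iΔRank libraries 2 low and 2 high. Genotype in virgin cells and parity in K8iΔRank luminal cells therefore cannot be told apart from this division, whose origin is not given in the sources used here. The same holds for the luminal interaction of genotype and stage. Luminal libraries also differed in depth with the division, at 534445 to 1158036 reads on the high and 1862812 to 3130419 on the low side. These luminal comparisons cannot be told apart from depth either. Basal libraries held 340445 to 1172427 reads in virgin K8imTmG and 1200781 to 2104379 in virgin K8iΔRank mice. In parous mice they held 450064 to 1365008 in K8imTmG and 1844364 to 2996649 in K8iΔRank. The basal comparisons of genotype therefore cannot be told apart from depth at either stage. The summed count of 7 basal markers was 408 to 726 in luminal and 7768 to 12019.7 in basal libraries, and that of 5 luminal markers 4039 to 11012 and 721 to 1903, so both labels held. Of 12 macrophage and monocyte markers 5 were in the table (Cd68, Lyz2, Cd74, C1qa and Mrc1), summing to 9.59 to 57.7 in luminal and 54.6 to 209.7 in basal libraries. The 7 lymphocyte markers were absent from the table. The 4 endothelial markers summed to 3.36 to 37.8 in luminal and 43.8 to 683 in basal libraries, with the highest median (517) in virgin K8iΔRank basal cells. The 6 fibroblast markers summed to 98.4 to 957 and 550 to 1003. Of 4 adipocyte markers Fabp4 was in the table, at 4.40 to 50.5 and 111 to 2587, and of 11 neutrophil markers Cxcr2, at 0 to 39.1 and 0.677 to 127. The part of these cell types in the values was not tested.

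Averaged over the 4 stage and genotype groups of each lineage, all 10 genes were expressed more highly in luminal than in basal cells, by 0.34 to 4.93 on the log2 scale. The widest differences were those of Muc1, Cd14 and Ltf, followed by Wfdc18 and Clu, and the narrowest was that of Lcn2. In limma on log2(normalized count + 1), with the 4 stage and genotype groups of each lineage weighted equally, 10 of 10 members were higher in luminal cells at an adjusted p below 0.05, where 28.7% of 11133 genes were higher and 55.7% differed in either direction. The median difference was 3.35 over the members and 0.035 over all genes. For Ltf, Wfdc18, Cd14, Clu and Muc1 every luminal library lay above every basal library, which was so for 3.42% of genes. In bulk libraries fewer cells of a type and less RNA per cell cannot be told apart. With mouse as replicate block all 10 remained past the threshold.

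**Figure D1:**
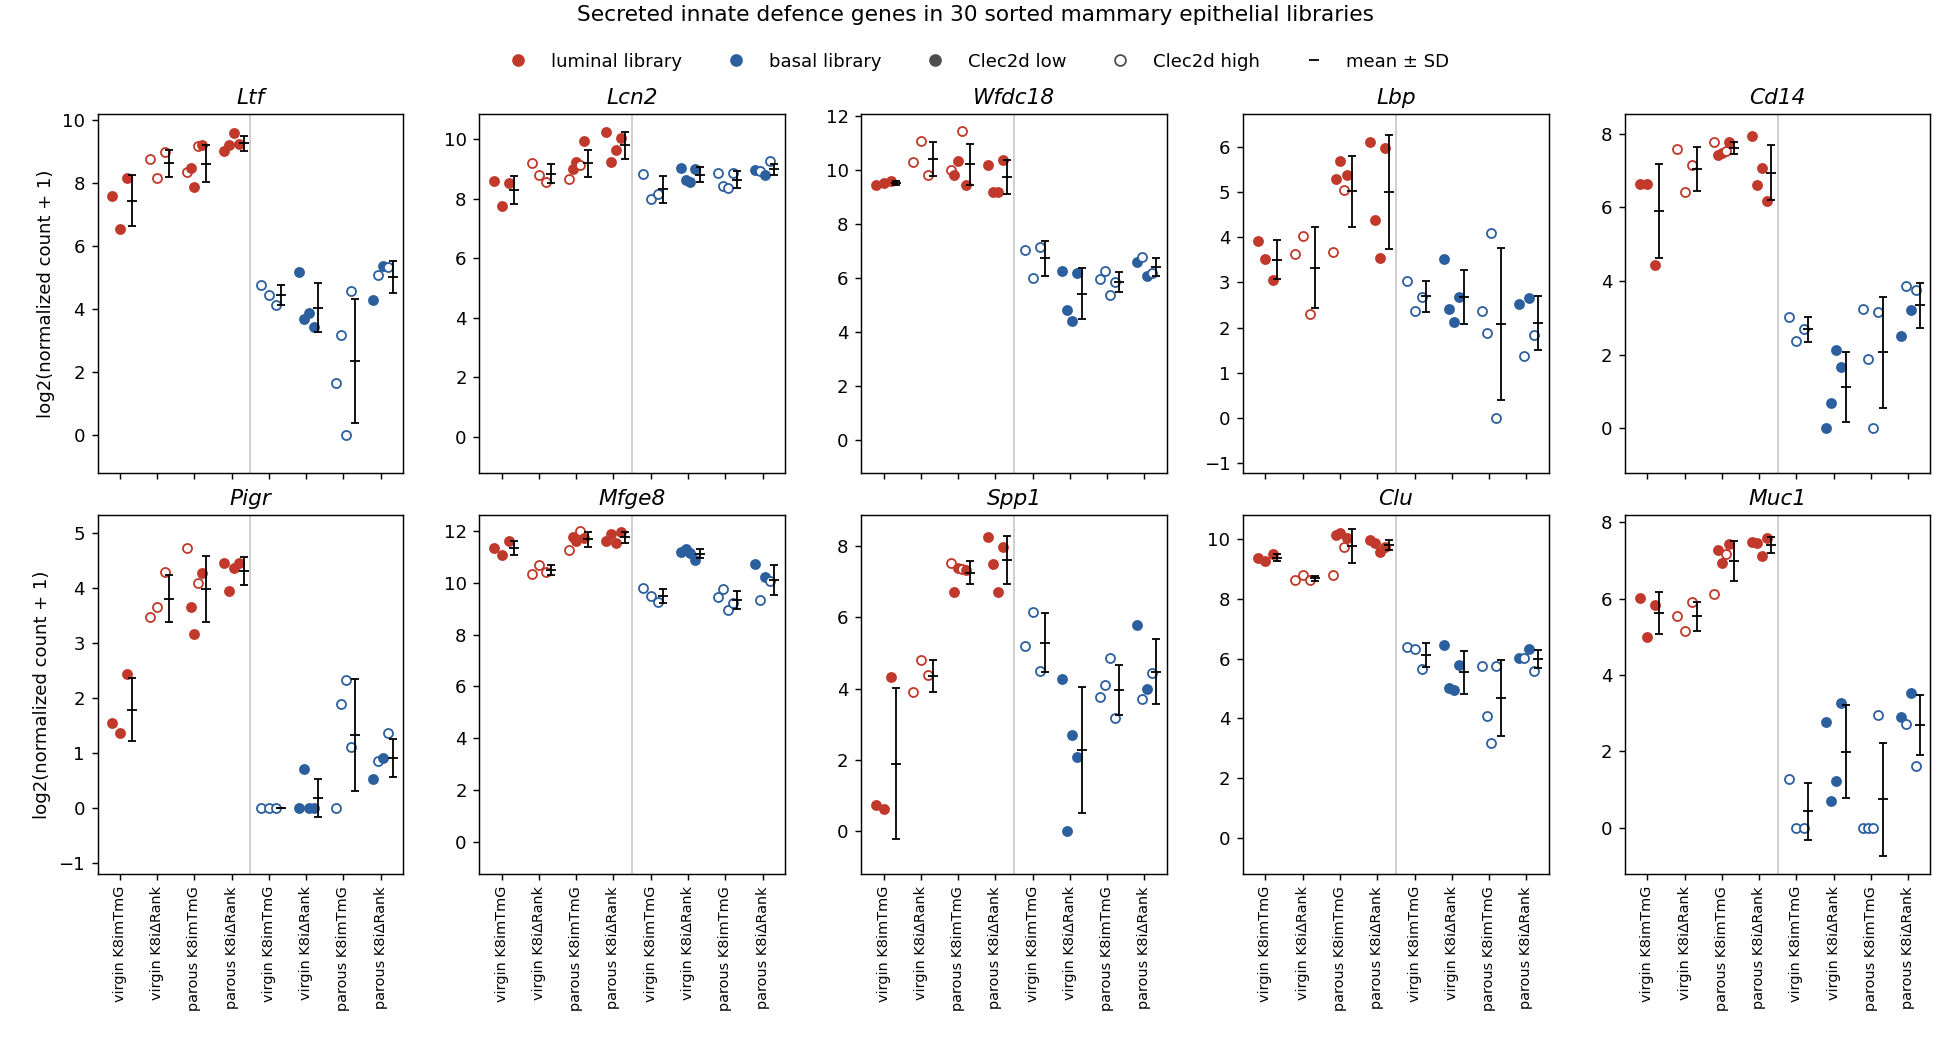
Expression of each gene, as log2(normalized count + 1), in the 15 luminal (red) and 15 basal (blue) libraries of 8 groups; filled points are Clec2d-low and open points Clec2d-high libraries, and bars give the mean ± SD. Luminal and basal points are far apart for Ltf, Wfdc18, Cd14, Clu and Muc1 and overlap for Lcn2, and Spp1 is low in virgin and high in parous luminal cells.

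Among the iron-binding and antimicrobial genes, the normalized count of Ltf ran from 92.3 through a median of 426 to 757 in the 15 luminal libraries and from 0 through 18.4 to 40.1 in the 15 basal libraries. Its difference was 4.52 (standard error 0.30, adjusted p = 1.38e-13). Wfdc18 ran from 577 through 897 to 2786 in luminal and from 20.3 through 70.9 to 141 in basal libraries, a difference of 3.86 (standard error 0.21, adjusted p = 1.97e-15). Neither gene overlapped between the lineages. Lcn2 differed from both. It ran from 217 through 562 to 1205 in luminal and from 252 through 454 to 610.4 in basal libraries, so that the lowest luminal library lay under every basal one. Basal cells held 73.3% of the luminal level of Lcn2, averaged over groups, against 4.89% for Ltf and 6.89% for Wfdc18. In virgin cells the means of Lcn2 were 323 in luminal and 330 in basal K8imTmG libraries, and 468 and 454 in K8iΔRank libraries. The difference of Lcn2, 0.34 (standard error 0.13, adjusted p = 0.0325), was past the threshold with the 30 libraries but not with edgeR (adjusted p = 0.0618), among Clec2d-high parous K8imTmG libraries (0.26, adjusted p = 0.495) or without mouse 534, 538, 557, 568, 787, 821 or 822 (adjusted p = 0.0557 to 0.121).

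Of the genes of lipopolysaccharide recognition, Cd14 was far higher in luminal cells, and Lbp was higher in luminal cells with overlap. Cd14 (ENSMUSG00000051439.8, on chromosome 18) ran from 20.6 through a median of 140.0 to 242 in luminal and from 0 through 4.72 to 13.5 in basal libraries, a difference of 4.57 (standard error 0.30, adjusted p = 1.09e-13). Cd14 is also a monocyte gene. Cd68 and Cd74, made by macrophages and antigen-presenting cells, had medians of 3.90 and 4.80 in luminal and 21.5 and 29.1 in basal libraries, and the part of such cells in the values of Cd14 was not tested. Lbp was low in both lineages. It ran from 3.96 through 15.4 to 68.1 in luminal and from 0 through 4.34 to 15.9 in basal libraries, with 6 basal libraries at 3 reads or fewer. The ranges overlapped, and the difference was 1.82 (standard error 0.33, adjusted p = 3.30e-05). Among Clec2d-high parous K8imTmG libraries alone it was 2.27 with an adjusted p of 0.151. Luminal means of Lbp were 10.6 and 10.2 in virgin and 34.4 and 40.0 in parous cells (K8imTmG and K8iΔRank), and basal group means were 3.55 to 5.87.

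Pigr, the immunoglobulin transporter, was a gene of few reads. It ran from 1.57 through 14.2 to 25.2 in luminal libraries, while all 15 basal libraries held 3 reads or fewer and 7 of them held 0, which allows up to 3 reads in each. Its difference of 2.86 (standard error 0.23, adjusted p = 1.33e-11) is on the log2(normalized count + 1) scale, which understates the change of a gene so low. Muc1, the apical mucin, was also low in basal cells. It ran from 30.9 through 123 to 191 in luminal and from 0 through 1.44 to 10.6 in basal libraries, 8 of which held 3 reads or fewer, and differed by 4.93 (standard error 0.30, adjusted p = 1.88e-14).

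Mfge8, the phagocytic bridge, was abundant in both lineages, from 1287 through 3071 to 4039 in luminal and from 489.7 through 878 to 2472 in basal libraries. The difference was 1.29 (standard error 0.12, adjusted p = 3.77e-10), and the ranges overlapped. All 4 basal virgin K8iΔRank libraries (1875 to 2472) exceeded all 3 luminal virgin K8iΔRank libraries (1287 to 1652). Clu, the chaperone, ran from 395 through 765 to 1165 in luminal and from 7.96 through 52.3 to 86.6 in basal libraries, a difference of 3.83 (standard error 0.21, adjusted p = 1.90e-15). Spp1, the integrin ligand, had the second narrowest difference, 1.28 (standard error 0.37, adjusted p = 0.00399). Its lineage ranges overlapped, and the luminal virgin libraries were low, as given next. In virgin K8imTmG cells the order of Spp1 was reversed, with 35.9, 70.3 and 21.7 in basal and 0.641, 0.524 and 19.1 in luminal libraries. These basal libraries were Clec2d-high and these luminal libraries Clec2d-low. Within Clec2d-low parous K8iΔRank libraries (4 luminal, 2 basal) the difference of Spp1 was 2.73 (standard error 0.52, adjusted p = 0.00329), and within Clec2d-high parous K8imTmG libraries (2 luminal, 4 basal) it was 3.47 (standard error 0.46, adjusted p = 4.20e-04). On these 2 sides 10 of 10 and 8 of 10 members were higher in luminal cells past the threshold, where 1575 of 10567 and 1020 of 10749 genes were.

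**Figure D2:**
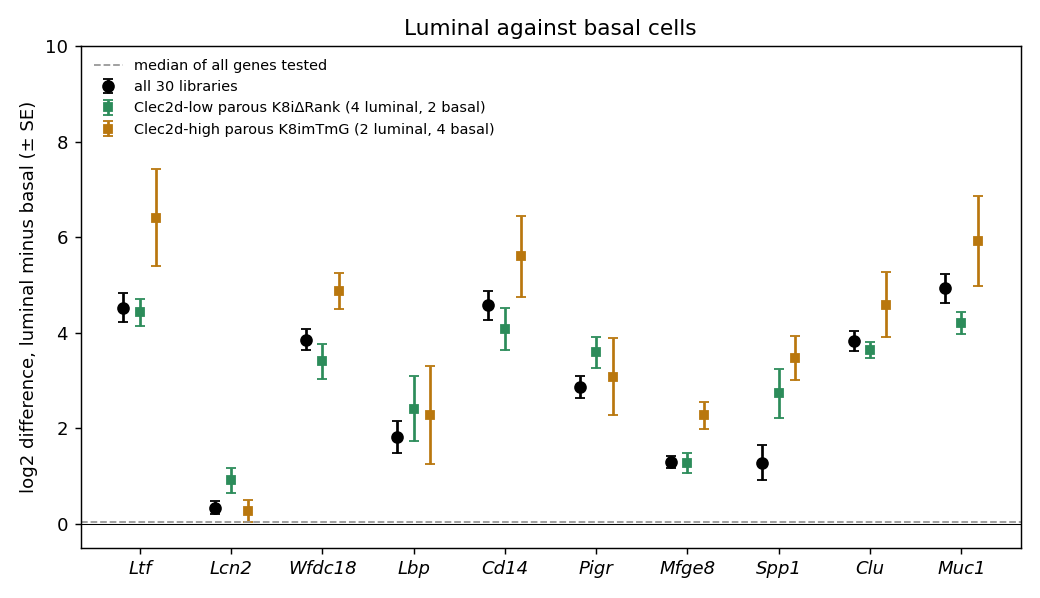
Log2 difference of each gene between luminal and basal cells with its standard error, for all 30 libraries (black) and within libraries on one side of the Clec2d division (green and orange); the dashed line is the median of all genes tested. All points lie above 0, and Lcn2 lies nearest to it at 0.34.

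After parity the luminal genes that rose in K8imTmG mice were Spp1 and Pigr. Spp1 was at a single read in 2 of 3 virgin libraries and at 104 normalized counts or more in every parous library. Pigr was at 1.57 to 4.42 normalized counts (3 to 6 reads) in virgin and 7.94 to 25.2 (5 to 42 reads) in parous libraries. Limma called 2 of 10 members, both higher, where 2.20% of 10279 genes were called and 1.06% were called higher. All 10 differences were above 0, with a median of 1.28 against -0.0062 over all genes, and 7 had an unadjusted p under 0.05, as did 2230 of the 10279 genes. Among the Clec2d-low libraries alone (3 parous, 3 virgin) 5 of 10 were called, Spp1, Lbp, Muc1, Pigr and Clu, where 6.03% of genes were called higher. DESeq2 called 5 members and 1060 genes, and edgeR 2 members and 277 genes.

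Spp1 held 0.641, 0.524 and 19.1 normalized counts in the virgin K8imTmG luminal libraries, of which the first 2 values were single reads. It held 183, 104, 166, 163 and 160.1 in the parous ones. Every parous library was above every virgin one, and the Clec2d-high parous libraries (183 and 163) lay within reach of the Clec2d-low ones (104 to 166). The rise was 5.38 (standard error 0.73, adjusted p = 0.0227), and 5.26 (standard error 0.90, adjusted p = 0.0160) among Clec2d-low libraries. The adjusted p was 0.0691 without virgin replicate 1, 0.0785 without virgin replicate 2 and 0.0549 without parous replicate 2, with rises of 4.79, 4.74 and 5.51. The virgin library at 19.1, replicate 3, lay among the virgin K8iΔRank values, and without it the rise was 6.60 (standard error 0.27).

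Pigr held 1.92, 1.57 and 4.42 in virgin K8imTmG luminal libraries and 25.2, 11.6, 7.94, 16 and 18.2 in parous ones, with no overlap in normalized counts. Parous replicate 4, at 16, held 5 reads, and virgin replicate 3 held 6. Its rise of 2.19 (standard error 0.48) had an adjusted p of 0.0486, just inside the threshold. That call was lost when any library other than parous replicate 1 was left out (adjusted p = 0.0591 to 0.149), with a pseudocount of 4 (0.0503) and after quantile normalization (0.0671), and it held among Clec2d-low libraries (1.91, standard error 0.48, adjusted p = 0.0398). Of 8 milk genes listed 5 were in the table (Csn2, Csn1s1, Csn1s2a, Csn3 and Lalba), and their sum was higher in every parous than in every virgin K8imTmG luminal library. It was 263 to 697 in virgin K8imTmG, 1484 to 2556 in virgin K8iΔRank, 4837 to 8822 in parous K8imTmG and 1672 to 4068 in parous K8iΔRank luminal libraries. The part of milk-producing cells in the values of Spp1 and Pigr was not tested. The markers of hormone-sensing cells summed to 9433 to 11740.5 in virgin and 648 to 10047 in parous K8imTmG luminal libraries. In K8iΔRank luminal libraries they summed to 5501 to 10221 in virgin and 2584 to 6801 in parous MGs. The 4 luminal progenitor markers other than Cd14 summed to 426 to 567 in virgin and 670 to 906 in parous K8imTmG libraries. In K8iΔRank they summed to 525 to 746 and 710 to 1035. The part of hormone-sensing and progenitor cells was not tested either.

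The other members of K8imTmG luminal cells did not pass with all 8 libraries in limma. Muc1 was 64.1, 30.9 and 56.7 in virgin and 68.9, 155, 123, 144 and 173 in parous libraries, a difference of 1.37 (standard error 0.34, adjusted p = 0.0719) that became 1.60 (standard error 0.30, adjusted p = 0.0189) among Clec2d-low libraries. Cd14 was 99.3, 98.0 and 20.6 in virgin and 220.1, 172, 179, 185 and 218 in parous libraries, a difference of 1.70 (standard error 0.45, adjusted p = 0.0800). For Muc1 and Cd14 the groups did not overlap, but the share of all genes without overlap was not computed between stages. Lbp was 7.36 to 14.1 in virgin and 11.8 to 50.3 in parous libraries, with a difference of 1.51 (adjusted p = 0.103), and 1.94 (standard error 0.30, adjusted p = 0.0148) among Clec2d-low libraries, where the parous values were 38.0, 50.3 and 40.2. Clu was 609 to 715 in virgin libraries, 1038 to 1165 in the Clec2d-low and 445 and 853 in the Clec2d-high parous libraries. Its difference was 0.40 (adjusted p = 0.488), and 0.74 (standard error 0.16, adjusted p = 0.0263) among Clec2d-low libraries. Ltf (means of 188 in virgin and 413 in parous libraries), Lcn2 (323 and 608), Wfdc18 (721 and 1333) and Mfge8 (2587 and 3272) had adjusted p between 0.143 and 0.503.

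**Figure D3:**
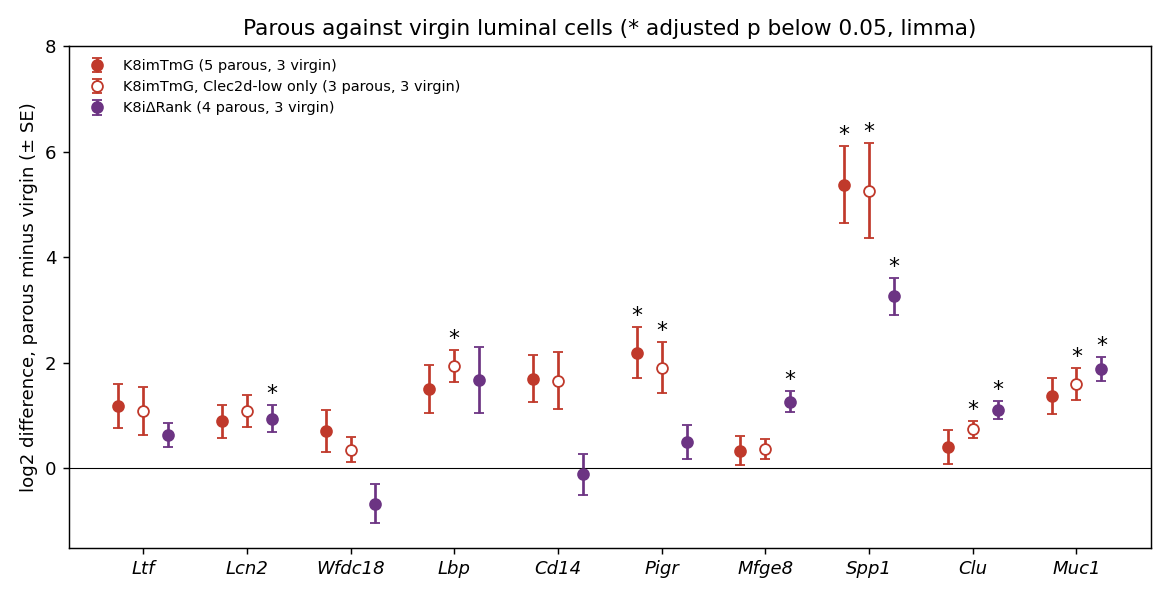
Log2 difference between parous and virgin luminal cells with its standard error, for K8imTmG mice (filled red), K8imTmG Clec2d-low libraries alone (open red) and K8iΔRank mice (purple); asterisks mark an adjusted p below 0.05. Spp1 has the highest point in each comparison, at 5.38, 5.26 and 3.26, whereas Cd14 and Wfdc18 of K8iΔRank lie below 0.

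In K8iΔRank luminal cells Spp1, Muc1, Mfge8, Clu and Lcn2 were higher in parous than in virgin MGs. Limma called these 5 of 10 members, all higher, where 8.25% of 10249 genes were called higher, with a median of 1.02 over the members and 0.032 over all genes. All virgin libraries of this genotype were Clec2d-high and all parous ones Clec2d-low, so parity and that division cannot be told apart. Spp1 held 13.9, 26.9 and 19.8 in virgin and 307, 180.3, 105 and 250.3 in parous libraries, a rise of 3.26 (standard error 0.35, adjusted p = 0.00118). Muc1 held 45.4, 34.6 and 59.4 in virgin and 177, 176, 138 and 191 in parous libraries, a rise of 1.88 (standard error 0.23, adjusted p = 0.00178). Neither gene overlapped between stages. The 2 parous K8imTmG luminal libraries on the Clec2d-high side held 183 and 163 of Spp1 and 68.9 and 144 of Muc1, above the 3 virgin K8iΔRank libraries of that side. These libraries differ in genotype as well as stage, and the part of the division in both rises was not tested.

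Mfge8 was 1287, 1652 and 1353 in virgin and 3114, 3712, 2922 and 3983 in parous K8iΔRank luminal libraries, a rise of 1.26 (standard error 0.20, adjusted p = 0.00392). Clu was 399, 442 and 395 in virgin and 1004, 934, 765 and 858 in parous libraries, a rise of 1.10 (standard error 0.17, adjusted p = 0.00392). Within parous K8imTmG luminal cells, the only luminal group with both sides of the Clec2d division, Mfge8 was 2419 and 4039 in the Clec2d-high and 3113 to 3474 in the Clec2d-low libraries, which overlapped, and Clu was lower in the Clec2d-high libraries (445 and 853 against 1038 to 1165). Lcn2 was 584, 446 and 374 in virgin and 1205, 607, 790.4 and 1059 in parous libraries, with no overlap, a rise of 0.94 (standard error 0.26, adjusted p = 0.0325). The call of Lcn2 was lost without virgin replicate 2 or 3 or without parous replicate 1 or 4 (adjusted p = 0.0646, 0.0918, 0.0780 and 0.0852). Pigr was already 10.1, 11.5 and 18.5 in virgin libraries and 20.9, 14.2, 19.5 and 20.9 in parous ones (0.50, standard error 0.32, adjusted p = 0.306). Cd14 (means of 139 and 136) and Wfdc18 (1436 and 909) gave -0.11 and -0.67, with adjusted p of 0.871 and 0.224. Ltf (0.63) and Lbp (1.67) had adjusted p of 0.0796 and 0.0898.

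Between genotypes, no member passed the test in luminal cells of either stage. In virgin cells limma called 0 of 10 members, where 0.984% of 10066 genes were called. At an unadjusted p under 0.05 there were 6 members and 2226 genes, DESeq2 called 3 members (Mfge8, Pigr and Wfdc18) and 648 genes and edgeR 0 members and 138 genes, and all of these values are confounded with the Clec2d division. Pigr was higher in all 3 virgin K8iΔRank libraries (10.1 to 18.5 against 1.57 to 4.42; 2.02, standard error 0.61, adjusted p = 0.101) and so was Wfdc18 (897 to 2161 against 684 to 758; 0.90, adjusted p = 0.143). Mfge8 and Clu were lower in all 3 (-0.85 and -0.68, adjusted p = 0.103 and 0.116). Ltf, Lcn2, Cd14, Lbp, Spp1 and Muc1 overlapped. The difference of Spp1 was 2.47 (adjusted p = 0.158) and passed without virgin K8imTmG replicate 3, the library at 19.1. In parous luminal cells 0 of 10 members were called by limma, DESeq2 or edgeR, where 0.0991% of 10090 genes were called, and 2 members, Ltf (0.64) and Cd14 (-0.66), and 2009 genes had an unadjusted p under 0.05. All 10 overlapped between the parous genotypes, and among Clec2d-low libraries 0 of 10 were called. The share of all genes without overlap was not computed between genotypes, so the overlaps are descriptions of the libraries only. Parous Ltf was 319, 354, 232, 578 and 584 in K8imTmG and 517, 589, 757 and 592 in K8iΔRank libraries (standard error 0.28, adjusted p = 0.234), and parous Cd14 was 172 to 220.1 and 71.0 to 242 (standard error 0.30, adjusted p = 0.251).

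Whether the parity difference itself differed between the genotypes was tested over the 15 luminal libraries. The virgin groups lay wholly on opposite sides of the Clec2d division, so this interaction cannot be told apart from it. Limma called 0 of 10 members, where 12.9% of 10262 genes were called, with 5 members and 3358 genes at an unadjusted p under 0.05. DESeq2 called Mfge8 and Pigr among 1990 genes, and edgeR Pigr among 1298. The interaction was -1.70 (standard error 0.56, adjusted p = 0.0569) for Pigr and -1.81 (standard error 0.66, adjusted p = 0.0769) for Cd14, negative where the parity difference was the smaller in K8iΔRank. For Spp1 it was -2.12 (standard error 0.91, adjusted p = 0.121), and for Mfge8 it had the other sign, 0.92 (standard error 0.33, adjusted p = 0.0705). The call came to 1 member without mouse 531 or 787 (Cd14), 534 (Pigr) or 538 (Spp1). The comparisons of parity and of genotype share libraries, so their values are not independent of each other.

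In basal cells the members were low except Lcn2 and Mfge8, and 6 or 7 of them were tested, since Pigr, Lbp and Muc1, and Cd14 in part of the comparisons, did not exceed 10 normalized counts in 25% of the libraries compared. In virgin basal cells 1 of 6 members was called between genotypes, Mfge8, where 8.99% of 10616 genes were called. Mfge8 was 878, 707 and 603 in K8imTmG and 2298, 2472, 2236 and 1875 in K8iΔRank libraries, which did not overlap, a difference of 1.61 (standard error 0.21, adjusted p = 0.00585). These groups are also the 2 sides of the Clec2d division, and within the parous K8iΔRank basal group, where both sides occur, Mfge8 was 639 and 1079.6 in the Clec2d-high and 1684 and 1182 in the Clec2d-low libraries. Spp1 was 35.9, 70.3 and 21.7 in virgin K8imTmG and 18.5, 0, 5.42 and 3.22 in virgin K8iΔRank basal libraries (-3.03, standard error 0.90, adjusted p = 0.0621), the reverse of its order in virgin luminal cells, and passed with DESeq2 and without K8iΔRank replicate 1. The Clec2d sides of the virgin genotypes were also reversed between the lineages. In both lineages the higher virgin group was thus the Clec2d-high group for Spp1, Wfdc18 and Ltf and the Clec2d-low group for Mfge8. For Lcn2 and Clu the side of the higher group differed between the lineages.

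In parous basal cells limma, DESeq2 and edgeR called 0 of 7 members between genotypes, where limma called 0.906% of 10592 genes, and 4 members and 2393 genes had an unadjusted p under 0.05. Ltf was 2.09, 8.02, 0 and 22.8 in parous K8imTmG and 18.4, 32.7, 40.1 and 38.8 in parous K8iΔRank basal libraries (2.66, standard error 0.78, adjusted p = 0.0878) and was called without K8imTmG replicate 4, the library at 22.8. In reads these were 1, 3, 0 and 20 in K8imTmG and 43, 41, 91 and 75 in K8iΔRank. Without replicate 4 every K8imTmG library was thus at 3 reads or fewer. Mfge8 (0.74, adjusted p = 0.159) was called without K8iΔRank replicate 2, the library at 639. Between stages 0 of 6 members were called in K8imTmG basal cells and 0 of 7 in K8iΔRank basal cells by limma, DESeq2 or edgeR. Limma called 0% of 10538 and 0% of 10525 genes there, and 4 and 5 members, beside 969 and 1036 genes, had an unadjusted p under 0.05. In K8iΔRank basal cells Mfge8 was 1875 to 2472 in virgin and 639 to 1684 in parous libraries (-1.03, standard error 0.28, adjusted p = 0.394), and Cd14 was 0, 0.62, 3.39 and 2.15 in virgin and 4.72, 13.5, 8.36 and 12.4 in parous libraries (2.22, adjusted p = 0.411), both without overlap. The interaction of genotype and stage in basal cells called 0 of 6 members and 0% of 10607 genes in limma, with 5 members and 1082 genes at an unadjusted p under 0.05 and 0 members by DESeq2 or edgeR. Lcn2 stayed between 252 and 610.4 in all 15 basal libraries.

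The parity difference, averaged over genotypes, differed between luminal and basal cells for 2 of 10 members, Spp1 and Mfge8, where 0.647% of 11133 genes were called and 0.494% were called higher. For Spp1 the luminal rise exceeded the basal one by 3.87 (standard error 0.73, adjusted p = 0.00966), with basal means of 42.6 ± 25 (SD, n = 3) for virgin K8imTmG, 16.1 ± 8.51 (SD, n = 4) for parous K8imTmG, 6.78 ± 8.10 (SD, n = 4) for virgin K8iΔRank and 25.4 ± 19.4 (SD, n = 4) for parous K8iΔRank mice. For Mfge8 the excess was 1.39 (standard error 0.25, adjusted p = 0.00723). Its luminal parity differences were 0.34 in K8imTmG and 1.26 in K8iΔRank mice, and its basal ones -0.15 and -1.03. In K8iΔRank mice the stages also differed in their Clec2d sides in both lineages, and the part of that division was not tested. The calls of Spp1 and Mfge8 held with mouse as replicate block (3.38 and 1.43, adjusted p = 0.00607 and 0.0270) and without each mouse in turn. Lbp came next, with 2.19 (standard error 0.67, adjusted p = 0.121), and was called by DESeq2 and without mouse 494.

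Over the 15 luminal libraries, which share stages, genotypes and the Clec2d division, the members did not move as one set. Pearson's r of log2(normalized count + 1) over the 45 pairs ran from -0.14 to 0.87 with a median of 0.46, and 41 pairs were above 0. The highest pairs were Mfge8 and Clu (0.87), Pigr and Spp1 (0.86) and Ltf and Pigr (0.85). Muc1 gave 0.80 with each of Lcn2, Spp1, Clu and Mfge8, Lbp gave 0.77 with Clu, and Pigr and Clu gave 0.065. Wfdc18 and Cd14 were apart from the rest, with no pair above 0.31 for Wfdc18 or 0.46 for Cd14. The gene outside the members with the highest r was Anxa8 for Ltf (0.87), D7Ertd443e for Lcn2 (0.87), Tmsb10 for Wfdc18 (0.90), Ptger4 for Lbp (0.93) and Gabrp for Cd14 (0.96). It was Cck for Pigr (0.89), Mgll for Mfge8 (0.93), C530043A13Rik for Spp1 (0.90), Plxnb1 for Clu (0.95) and Trf, the iron carrier transferrin, for Muc1 (0.95). Each of these was the highest value over all other genes tested and describes the 15 libraries alone.

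**Figure D4:**
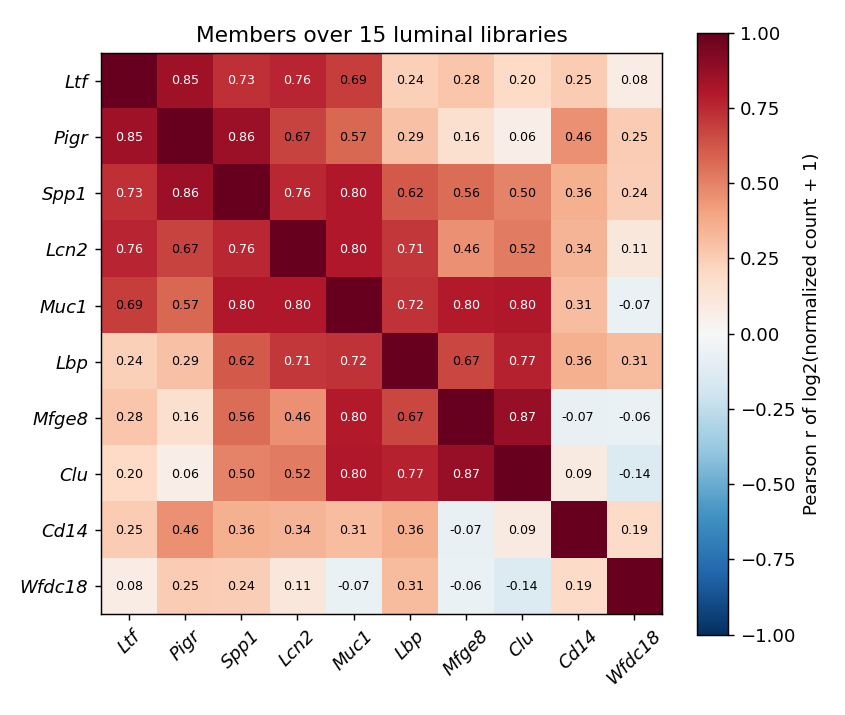
Pearson's r of log2(normalized count + 1) between members over the 15 luminal libraries, with colour from -1 (blue) to 1 (red). Values reach 0.87 for Mfge8 and Clu, Muc1 is at 0.80 with Spp1, Lcn2, Mfge8 and Clu, and the row of Wfdc18 runs from -0.14 to 0.31.

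Genes that work with these members were taken from lists of the same kind, to be read beside the 3194 genes higher and 3003 lower in luminal cells among all 11133. Of 10 measured genes of lipopolysaccharide sensing, 7 were higher and 1 was lower in luminal cells (median 0.52). Tlr4, the receptor that Cd14 and Lbp serve, was 30.1 ± 11.2 (SD, n = 15) in luminal and 10.8 ± 5.42 (SD, n = 15) in basal libraries (1.49, standard error 0.28, adjusted p = 5.65e-05), and its adaptor Tirap and the kinase Irak2 were also higher (1.03 and 1.07). Tlr2, which senses bacterial lipoproteins, was lower in luminal cells (-0.94, standard error 0.34, adjusted p = 0.0202). Of 29 other measured defence genes 18 were higher and 9 lower in luminal cells (median 1.65). The haem and mucus genes Hp and Fcgbp were higher (4.72 and 4.84), as was the mucin Muc20 (4.40), while the protease inhibitor Slpi was the reverse, with 18.2 ± 22.4 (SD, n = 15) in luminal and 1136 ± 664 (SD, n = 15) in basal libraries (-6.30, standard error 0.32, adjusted p = 2.98e-16), and so were the ribonuclease gene Rnase4 (-4.20) and the chitinase-like gene Chil1 (-3.39). After parity in K8imTmG luminal cells 5 of 28 tested defence genes rose and none fell (1.06% of all genes rose), among them the mucins Muc15 (2.19) and Muc4 (3.30) and Fcgbp (1.71), and in K8iΔRank luminal cells 5 of 28 rose (8.25% of all genes), among them Trf (1.64), Fcgbp (1.75) and Cp (1.25), and B2m fell (-1.01). Tollip of the sensing list also fell in K8iΔRank luminal cells (-1.53, adjusted p = 0.0315). The luminal interaction of genotype and stage was called for Muc4 (-2.94, adjusted p = 0.0269). These K8iΔRank values and the interaction cannot be told apart from the Clec2d division.

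Of 11 measured binding partners, 1 was higher and 5 were lower in luminal cells (median -0.14). The lipoprotein receptors Lrp1 and Vldlr were lower (-4.39 and -2.10), as was Egfr (-2.57), while Lgals3bp was higher (1.14). For Spp1, whose receptors include CD44 and αv integrins, Cd44 rose with parity in K8imTmG luminal cells from 98.0 ± 47.7 (SD, n = 3) to 329 ± 68.1 (SD, n = 5; 1.84, standard error 0.32, adjusted p = 0.0285), and Itgav, the αv subunit, fell from 193 ± 58.3 (SD, n = 3) to 73.4 ± 10.1 (SD, n = 5; -1.35, standard error 0.24, adjusted p = 0.0285). In K8iΔRank luminal cells Itgav was instead higher after parity (0.84, standard error 0.26, adjusted p = 0.0498), and the difference between the genotypes was itself past the threshold (2.18, standard error 0.36, adjusted p = 0.00765). In that genotype parity cannot be told apart from the Clec2d division, and neither can this interaction. Itgav was also higher in virgin K8iΔRank than in virgin K8imTmG basal cells (0.83, standard error 0.21, adjusted p = 0.0385). In both of these K8iΔRank comparisons the higher group was the Clec2d-low one. Of 21 measured regulators, 11 were higher and 7 lower in luminal cells (median 0.46). The epithelial Ets factors Ehf, Elf5 and Spdef were higher (5.23, 4.94 and 4.23), while Socs3 and Lifr were lower (-2.04 and -1.24), as was Cebpd. In K8imTmG luminal cells Lifr, the receptor of leukaemia inhibitory factor, fell with parity (-1.95, standard error 0.34, adjusted p = 0.0285), and in K8iΔRank luminal cells the NF-κB subunits Rela (1.35) and Nfkb2 (1.08) and Ehf (1.22) rose and Stat5a (-1.33), Socs3 (-1.96) and Il6ra (-1.07) fell, a comparison in which the Clec2d division cannot be told apart from parity. Between luminal genotypes the only listed gene called was Ptx3, a soluble pattern recognition protein, in virgin cells (2.09, standard error 0.34, adjusted p = 0.0335). In virgin basal cells Ptx3 was instead lower in K8iΔRank (-2.04, standard error 0.52, adjusted p = 0.0392), so that its higher group was the Clec2d-high one in both lineages, and genotype cannot be told apart from that division. Other listed genes called in virgin basal cells, under the same limit, included C3 (1.10), higher in K8iΔRank. Those lower in K8iΔRank included Cst3 (-2.17), Slpi (-1.43), Egfr (-1.56), Lrp1 (-0.95), Cebpd (-1.15) and Osmr (-1.43).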

How the data were processed

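The authors deposited 1 table of normalized counts, a signal, for 30 libraries; per the labels and methods, reads from 3′ mRNA libraries with a 6 nt UMI were deduplicated, aligned to GRCm39, counted and divided by DESeq2 size factors, keeping genes above 10 in at least 25% of samples. The submitters' processing notes name UMI-tools, Bowtie2, SAMtools, bedtools, FastQC 0.11.9 and DESeq2. RNA integrity averaged 6.9 (2.5 to 8.6) and is not known per library. Genes that are not rows of the table were not analysed here.

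Values in every library were whole multiples of 1 step (100% within 0.01 reads), so reads were recovered for DESeq2 1.42.0 and edgeR 4.0.16. No 2 replicates were the same library (chi-square per degree of freedom at least 2.67 in 43 pairs). A floor of 3 reads covers counting error only. Groups follow the labels. The main test was limma 3.58.1 (a trended prior on log2 values after adding 1), on genes above 10 in 25% of the libraries compared, with Benjamini-Hochberg adjustment over all genes tested and a threshold of 0.05. The luminal against basal test and the lineage by stage test used all 30 libraries. Each test was repeated with DESeq2, with edgeR, with 0.5 or 4 added, unfiltered, on genes averaging 50 or more, after quantile normalization, with array quality weights, with all 15 libraries of the lineage fitted together, without each library or mouse, on 1 side of the Clec2d division, and with mouse as replicate block. The 13 mice with both lineages pair the libraries by origin, and their residuals correlated by -0.238 to 0.341 (median 0.0897). The fits were tested on simulated data. The members and lists were chosen with earlier results of these data known. Text names all members and the gene nearest to each member in Pearson's r. Listed genes were taken from up to 3 per list, direction and comparison by lowest adjusted p, and not all of these are named. Analyses used R 4.3.3 and Python with pandas and matplotlib.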

Additional observations from a re-analysis of the deposited data

Results flagged for a closer look

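In groups of 4 or 5 libraries, 1 library lay far from the rest in 3 of the 50 sets of a gene and a group looked at, and chance alone gives about 1 in 20 for normally distributed values. That rate does not hold for counts near 0. A single library above 0 beside libraries at 0 is always flagged, as for Pigr and Muc1 here. Pigr was 0.620 normalized counts in basal virgin K8iΔRank replicate 2, a single read, and 0 in the other 3 libraries. Muc1 was 6.83 in basal parous K8imTmG replicate 4 and 0 in the other 3. Spp1 was 104 in luminal parous K8imTmG replicate 2 and 160.1 to 183 in the other 4, still above every virgin luminal library. The parity difference itself differed between luminal and basal cells, by a test of that difference, for Mfge8 (1.39 on the log2 scale) and for Spp1 (3.87).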

How the results depend on the processing

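Of 78 tested differences of members, 20 passed the threshold and all 20 kept their direction under every alternative run; 15 stayed past it throughout, and Pigr and Spp1 (parity, K8imTmG luminal), Lcn2 (parity, K8iΔRank luminal; lineage) and Lbp (lineage) lost it under some. The number of members called in virgin luminal genotype was 0, and 1 after quantile normalization, 7 with array quality weights, 3 with DESeq2 and 1 with the lineage in one fit; leaving out a library gave 0 to 1. For parity in K8imTmG luminal cells it was 2, and 1 with a pseudocount of 4, a mean of at least 50 or quantile normalization, 9 with quality weights, 5 with DESeq2, 4 with the lineage in one fit and 5 among Clec2d-low libraries; leaving out a library gave 0 to 4. For virgin basal genotype it was 1, and 2 with a pseudocount of 4, quantile normalization, quality weights or DESeq2 and 3 with the lineage in one fit; leaving out a library gave 1 to 2. With quality weights it went from 0 to 2 for parous basal genotype and for parity in K8iΔRank basal cells, and leaving out a library gave 0 to 1 in the former. For the luminal genotype by stage interaction it was 0, and 1 with a mean of at least 50, quantile normalization or edgeR, 3 with quality weights and 2 with DESeq2; leaving out a mouse gave 0 to 1. The cause of these changes was not tested; the quality weights were estimated from few libraries.

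No difference that passed changed sign. Of the 58 that did not pass, 6 did so. Leaving out each library in turn gave -0.53 to 0.33 for Lbp and -0.40 to 0.11 for Muc1 in virgin luminal genotype (Muc1 0.53 with quality weights), -0.027 to 0.16 for Mfge8 in parous luminal genotype and -0.44 to 0.16 for Cd14 in K8iΔRank luminal parity. In parous luminal genotype Lbp became 0.0059 with a pseudocount of 4, 0.17 with DESeq2, 0.14 with edgeR and -0.39 to 0.47 without 1 library, and Clu became -0.27 with quality weights, -0.083 with DESeq2, -0.086 with edgeR, -0.32 among Clec2d-low libraries and -0.23 to 0.12 without 1 library. With mouse as replicate block 10 members were called between lineages and 2 in the lineage by stage interaction, as without it. Counts over all genes moved more: parity in K8imTmG luminal cells called 226 genes, 1060 with DESeq2, 277 with edgeR, 3993 with quality weights, 789 with the lineage in one fit and 1285 among Clec2d-low libraries, parous luminal genotype 10, 611, 20, 1147, 42 and 42, and virgin luminal genotype 99, 648, 138, 2514 and 87 (no single side could be fitted). Parity in K8iΔRank luminal cells called 1643 genes and 222 with the lineage in one fit, virgin basal genotype 954 and 1803 likewise, parous basal genotype 96, 645 with DESeq2, 2572 with quality weights and 12 unfiltered, the luminal interaction 1326 and 2671 with quality weights, and the lineage by stage interaction 72, 258 with DESeq2, 349 with quality weights and 253 with mouse as replicate block. Groups of 3 to 5 libraries and low counts of Pigr, Lbp and Muc1 in basal cells limit what could be seen.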
